A study of Mus musculus with 54 samples.

Results

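The triggering receptors expressed on myeloid cells (TREMs) and Tyrobp, the adaptor protein through which several of them signal, were followed in primary mouse microglia that had or had not been given alpha-synuclein (aSyn). The 6 genes, Trem1, Trem2, Trem3, Treml2, Treml4 and Tyrobp, were taken by symbol from the 16632 genes of the deposited count table, and 5 of them were among the 13169 genes that passed the filter on low counts, Trem3 being the exception. Treml4 was chosen by its counts in aSyn-treated against untreated libraries, where it was above 0 only with aSyn, so its values in any comparison with those libraries are given as a description, without a test. The other 5 genes belong to the family by name or function.

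TREM2 is a surface receptor of microglia and other macrophages that binds lipids, lipoproteins and debris of dead cells, and is known for its part in phagocytosis and for variants that raise the risk of Alzheimer's disease. It has hardly any signalling tail of its own. Its transmembrane segment pairs with TYROBP (also called DAP12), whose immunoreceptor tyrosine-based activation motif (ITAM) is phosphorylated by Src-family kinases and then recruits the kinase SYK. TREM1 uses the same adaptor and amplifies inflammatory signals of neutrophils and monocytes, TREM3 is its activating relative in the mouse, TREML4 binds dead cells and sensitises macrophages to Toll-like receptor ligands, and TREML2 is a family member of macrophages, neutrophils and B cells. ADAM10 and ADAM17 cut the TREM2 ectodomain from the cell surface, and the stub is cleaved by gamma-secretase.

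All cells were microglia of C57BL/6 mice, shaken from astrocyte layers grown from neonatal brains; no genotype other than the strain is given. Donor cells received 1 µM Atto-488-labelled aSyn for 14 h, and acceptor cells were stained violet. Both were cultured together over 15, 30, 60, 150 or 300 min before sorting, and a further pair of groups carries the label 0 min, which is not explained. The cells were grown with supernatant of L929 fibroblasts, a source of macrophage growth factor, and whether untreated and aSyn-treated cells went through the sorter is not stated. With untreated cells and cells given aSyn alone (aSyn-treated) there were 14 groups and 54 libraries of 3′-end RNA sequencing, with replicate numbers 1 to 4, called experiments here. The untreated group has 6 libraries, of which the pairs numbered 2 and 4 were summed, so that 52 units were compared, 26 from cells given aSyn (donors and aSyn-treated) and 26 from cells not given it (acceptors and untreated). Groups hold 3 or 4 units, since donors at 60 min of experiment 2, acceptors at 300 min of experiment 3 and both 0 min groups of experiment 4 were not analysed here. The labels state passage 3 for experiment 1, passage 1 for experiment 2 and passage 2 for experiments 3 and 4. Cultures came from pooled brains, and whether the units of an experiment were separate preparations is not stated, so p-values measure the spread between these units, which may in part be technical.

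Libraries held 7807389 to 15537493 counts. Experiment 4 stood apart: its sequencing numbers form a run separate from that of the other experiments, and the ribosomal transcript Rn45s took 13.4% to 22.3% of its counts, against 1.42% to 13.5% elsewhere. The summed level of 10 microglial and macrophage markers (in CPM, counts scaled to a common library size by edgeR's TMM method, used throughout) had a median of 6372 in the 20 aSyn-given and 6370 in the 20 other units of experiments 1 to 3 (ranges 5486 to 7560 and 5720 to 6984), and of 3685 and 4623 in the 6 and 6 units of experiment 4 (3507 to 3777 and 4354 to 4843). All 10 were detected, although Tmem119 and P2ry12, which mark resting microglia, were low, at medians between 1.81 and 7.34 CPM. Results that rest on experiment 4 are given with and without it. In bulk RNA, fewer cells of a type and less RNA per cell cannot be told apart.

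The 5 receptor genes lie close together on the forward strand of mouse chromosome 17 (GRCm38, GENCODE M21). Other genes in the gaps between them were not looked for. In order, Trem1 spans 48232768 to 48246924, Trem3 48247777 to 48258841, Treml4 48264295 to 48275360, Treml2 48299498 to 48312533 and Trem2 48346401 to 48354147. Treml1, a platelet receptor that was not among the 6 genes, lies beyond Trem2 at 48359916 to 48367176. From Trem1 to Treml1 the stretch is 134.4 kb. Tyrobp lies apart on chromosome 7, at 30413760 to 30417585. No annotated exon of another gene overlaps an exon of the 6 genes.

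RefSeq promoter windows (GRCm38.p6, 250 bases before to 50 after the start) were held for 3 of the 6 genes. They are shown because these nearby genes did not move together: Trem2 fell and Treml4 rose in donors against acceptors, as given further on. Capitals mark matches, on either strand, to GAGGAA (read as TTCCTC on the other strand), the core bound by the myeloid factor PU.1, and to TGANTCA, the AP-1 motif. The windows are chr17:48346151-48346450 for Trem2, chr17:48264045-48264344 for Treml4 and chr17:48232489-48232788 for Trem1, all on the forward strand.
Trem2 promoter: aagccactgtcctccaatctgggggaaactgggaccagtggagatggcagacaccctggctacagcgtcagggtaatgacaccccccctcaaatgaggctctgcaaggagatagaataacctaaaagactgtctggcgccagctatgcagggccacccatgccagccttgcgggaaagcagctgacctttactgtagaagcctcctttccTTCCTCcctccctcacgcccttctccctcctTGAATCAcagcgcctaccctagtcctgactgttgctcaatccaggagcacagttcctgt
Treml4 promoter: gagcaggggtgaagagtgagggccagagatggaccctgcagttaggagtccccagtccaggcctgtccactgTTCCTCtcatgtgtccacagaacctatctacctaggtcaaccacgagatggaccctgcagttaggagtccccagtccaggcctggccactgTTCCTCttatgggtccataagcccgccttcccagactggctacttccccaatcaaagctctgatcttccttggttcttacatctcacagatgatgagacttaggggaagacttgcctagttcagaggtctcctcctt
Trem1 promoter: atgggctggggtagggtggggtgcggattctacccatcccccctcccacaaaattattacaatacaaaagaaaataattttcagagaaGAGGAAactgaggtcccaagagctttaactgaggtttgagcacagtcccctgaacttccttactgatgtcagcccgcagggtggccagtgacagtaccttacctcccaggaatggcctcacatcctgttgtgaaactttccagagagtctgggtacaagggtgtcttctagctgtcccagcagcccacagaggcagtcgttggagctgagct

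The PU.1 core begins 40 bases before the Trem2 start, 178 and 87 bases before the Treml4 start (all 3 on the reverse strand) and 162 bases before the Trem1 start (forward strand). It occurs in 28.3% of the 32851 RefSeq promoter windows of that length. The AP-1 motif is in the Trem2 window alone, 9 bases before the start, and in 7.81% of all windows. The E-box CACGTG, present in 7.15% of windows, has no match in these 3. The motifs do not overlap each other, and a match is a description of the letters only.

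Trem2 was lower in cells given aSyn in every experiment. In untreated cells its level was 774, 497, 712 and 669 CPM in experiments 1 to 4, and in aSyn-treated cells it was 488, 329, 401 and 36.8 CPM. The aSyn-treated units thus held 63.0%, 66.1% and 56.3% of the untreated level in experiments 1 to 3 and 5.51% in experiment 4, and the groups do not overlap. The fit without a term for experiment gave a log2 fold change of -1.08 ± 0.66 (SE), which missed the threshold (edgeR quasi-likelihood test, adjusted p = 0.416), where 2.5% of all genes were called. With experiment as a block the change was -1.43 ± 0.56 (adjusted p = 0.0663, 19.2% of genes called). Without experiment 4 it was -0.69 ± 0.24 (adjusted p = 0.138, 2.3% called), and with the block and without experiment 4 -0.69 ± 0.10 (adjusted p = 1.81e-05, 12.4% called).

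The same order was seen between the sorted populations. Acceptors of experiment 1 held 701, 670.0, 664, 607, 678 and 653 CPM of Trem2 at 0, 15, 30, 60, 150 and 300 min, and their donors 512, 502, 500.5, 483, 516 and 521. In experiment 2 acceptors held 535, 473, 507, 528, 514 and 469.5 CPM, and donors 299.7, 289.7 and 313 at the early times and 324 and 336 at 150 and 300 min. In experiment 3 acceptors held 759, 578, 586, 584 and 578 CPM up to 150 min, and donors 358, 344, 366, 343, 356 and 355. In these experiments donors kept between 47.2% and 79.7% of the acceptor level, and the donor and acceptor values of an experiment never overlap.

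In experiment 4 the gap was far wider, with acceptors at 640.4, 549, 601, 603 and 523 CPM from 15 to 300 min and donors at 37.3, 31.8, 33.3, 43.6 and 40.9 CPM. Donors there held 5.54% to 7.81% of the acceptor level, while the acceptors stayed inside the range of the other experiments. Trem2 was lower in the donor in 21 of 21 pairs of the same experiment and time, 16 of them outside experiment 4.

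**Figure D1:**
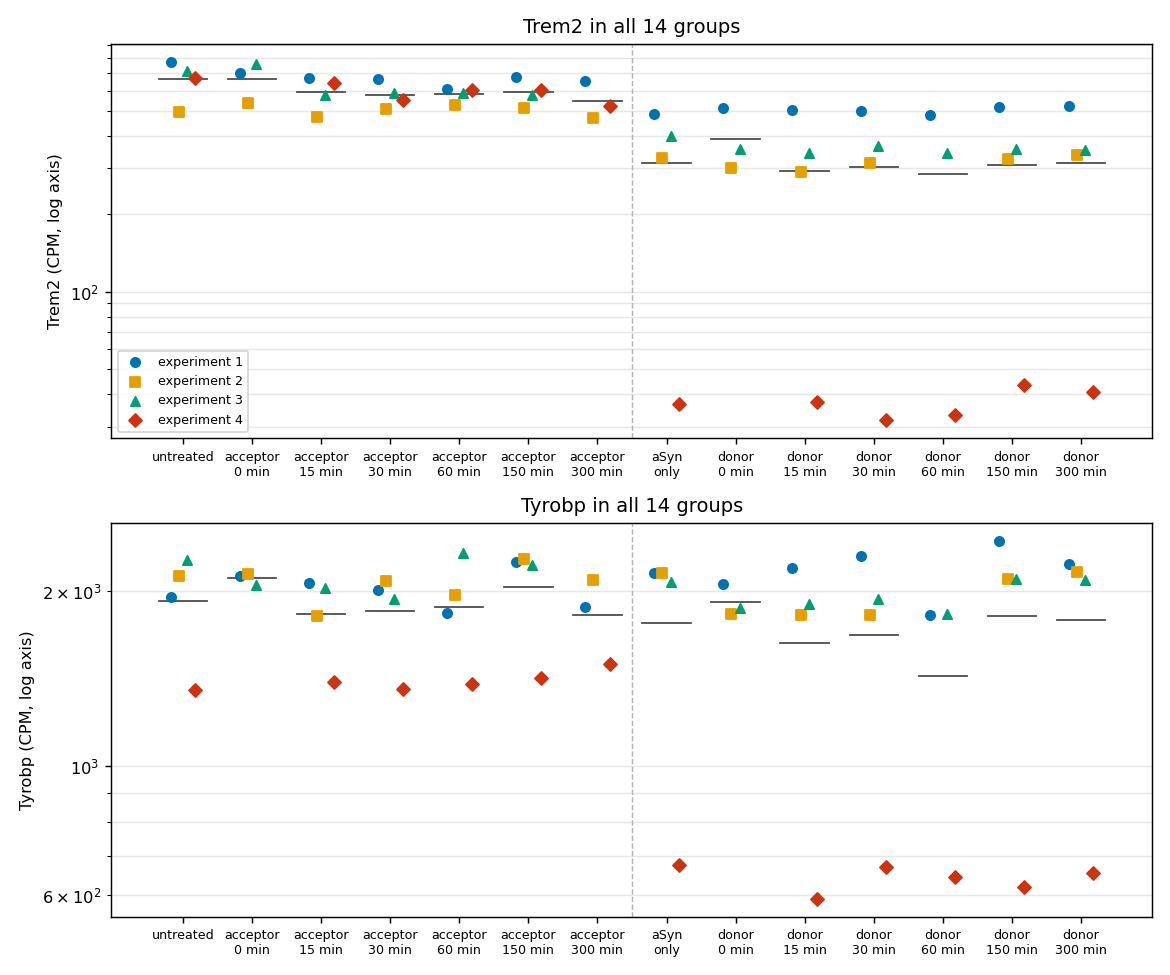
Trem2 (top) and Tyrobp (bottom) in CPM on log axes for each unit of the 14 groups, coloured by experiment; horizontal bars are group means and the dashed line parts cells not given aSyn (left) from cells given it (right). Trem2 is lower on the right in every experiment and falls to 31.8 to 43.6 CPM in experiment 4, where Tyrobp is also at its lowest.

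Averaged over the 6 times, Trem2 fell in donors against acceptors by 0.91 ± 0.29 on the log2 scale (edgeR, adjusted p = 0.0154), in a comparison in which 25.6% of all genes were called. The block gave -1.25 ± 0.25 (adjusted p = 7.61e-05, 44.3% of genes called), the fit without experiment 4 gave -0.57 ± 0.10 (adjusted p = 0.00014, 20.9%), and both together -0.61 ± 0.04 (adjusted p = 1.14e-12, 35.6%). Trem2 was not called without experiment 2 (adjusted p = 0.0833) or without experiment 3 (adjusted p = 0.0936) in the fit with no block. Units of an experiment enter these fits as separate samples, and the 4 experiments are fewer than the units.

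At single times the fit with no block gave Trem2 log2 fold changes from -1.02 to -0.77 with adjusted p from 0.583 to 0.938, and only Treml4 among the 5 tested genes reached an unadjusted p under 0.05, at 3 of the times. No gene of the family was called at 0, 15, 30, 60, 150 or 300 min, when 0.251%, 0.888%, 0.805%, 0.418%, 0.167% and 0.0304% of all genes were, and DESeq2 called none of them either. With the block 4.28%, 9.57%, 10.8%, 6.7%, 5.19% and 1.38% of genes were called at these times, and Trem2, at -1.51 to -0.80, was not among them. With the block and without experiment 4, Trem2 fell at all 6 times, by 0.79, 0.61, 0.59, 0.62, 0.57 and 0.47 on the log2 scale, with adjusted p from 3.05e-06 at 0 min to 0.0307 at 300 min, where 11.1%, 6.66%, 8.58%, 4.5%, 3.26% and 1.17% of genes were called.

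**Figure D2:**
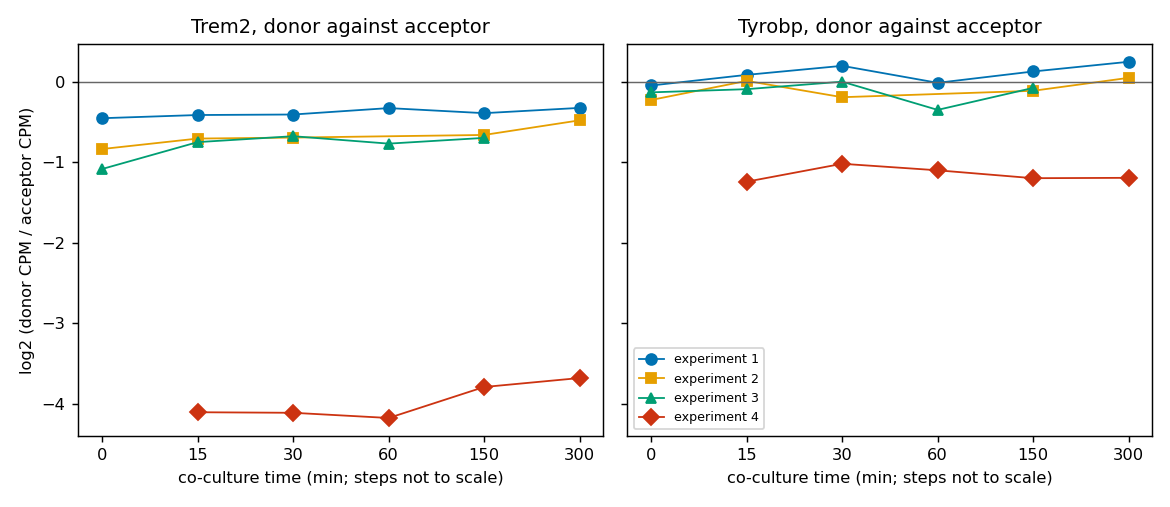
Log2 ratio of donor to acceptor CPM at each co-culture time, a line per experiment, for Trem2 (left) and Tyrobp (right); 0 means equal levels. Every Trem2 point is below 0, with experiment 4 near -4, while Tyrobp lies around 0 in experiments 1 to 3 and near -1 in experiment 4.

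Trem2 in co-cultured cells stayed near the level of the cells kept alone, donors near aSyn-treated cells and acceptors near, but mostly somewhat below, untreated cells. Donors lay between 85.4% and 118% of the aSyn-treated Trem2 level of their experiment, and acceptors between 78.3% and 108% of the untreated level. Acceptors were below the untreated unit of their experiment in 1 of 3 pairs at 0 min and 4 of 4 at 15 min. They were below it in 3 of 4 pairs at 30, 60 and 150 min and in 3 of 3 at 300 min. In the fit, donors differed from aSyn-treated cells by -0.13 to 0.31 (log2) and acceptors from untreated cells by -0.27 to 0.00, with no call. By group mean Trem2 ran, from high to low, from acceptors at 0 min (665 ± 116 CPM, SD, n = 3) and untreated cells (663 ± 119, n = 4) through acceptors at 150, 15, 60, 30 and 300 min (593 to 549) to donors at 0 min (389.8 ± 109.6, n = 3), aSyn-treated cells (314 ± 196, n = 4) and the other donors (313 to 286). Donors at 0 min lack experiment 4, which lowers the other donor means. No 2 neighbours in this order differ beyond their spread over all experiments; at the widest step, from acceptors at 300 min (549 ± 94.5, n = 3) to donors at 0 min, the highest donor value exceeds the lowest acceptor value.

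Tyrobp, the adaptor, was abundant and steady in experiments 1 to 3. Untreated cells held 1957, 2128, 2267 and 1351 CPM in experiments 1 to 4, and aSyn-treated cells 2152, 2149.5, 2076 and 676. The aSyn-treated level was 110.0%, 101.0% and 91.6% of untreated in the first 3 experiments and 50.0% in experiment 4, so that the groups overlap except there. Donors held 96.7% to 119% of the acceptor level in experiment 1, 85.4% to 103% in experiment 2, 78.4% to 99.9% in experiment 3 and 42.3% to 49.3% in experiment 4, where donors lay between 591 and 669.9 CPM and acceptors between 1358 and 1499.

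At 0, 15, 30, 60, 150 and 300 min Tyrobp stood at 2125, 2066, 2009, 1837, 2242 and 1879 CPM in acceptors of experiment 1 and at 2054, 2189, 2300.5, 1817, 2445 and 2228 CPM in donors. In experiment 2 it was 2145, 1813, 2086, 1974, 2271 and 2088 CPM in acceptors, and 1831, 1824, 1824, 2098 and 2156 CPM in donors at the 5 times other than 60 min. The donor and acceptor ranges of these experiments overlap. In experiment 3 acceptors held 2051, 2029.6, 1939.7, 2329.8 and 2216 CPM up to 150 min and donors 1869, 1901, 1938, 1826, 2098 and 2091 CPM. From 15 to 300 min of experiment 4 acceptors held 1397, 1358, 1384, 1420.0 and 1499 CPM and donors 591, 669.9, 645, 619 and 655 CPM. Experiment 4 was thus low in both populations, and it alone kept donors and acceptors fully apart in Tyrobp.

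Tyrobp was lower in the donor in 15 of 21 pairs and higher in 6, and outside experiment 4 lower in 10 of 16. By the median over all units it ranked 40 and Trem2 237 among the 16632 genes, at 1992 and 504.9 CPM, each far above the floor. The smallest Trem2 count in any unit was 370 and the smallest Tyrobp count 7448. The low Trem2 level of experiment 4 did not rest on counts near 0: its aSyn-treated unit had 422, where experiments 1 to 3 had 6620, 4631 and 5047.

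Tyrobp was not called in aSyn-treated against untreated cells (log2 fold change -0.13 ± 0.38, edgeR adjusted p = 0.905) nor over the donor-acceptor times (-0.17 ± 0.16, adjusted p = 0.473). The block called it over the times (-0.29 ± 0.09, adjusted p = 0.00682), and without experiment 4 the value was -0.02 ± 0.04 (adjusted p = 0.734). At single times the fit with no block gave -0.40 to -0.03, and no call.

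Trem2 was also set against its adaptor within each unit. Untreated cells held 39.6, 23.4, 31.4 and 49.5 Trem2 counts per 100 Tyrobp counts, and aSyn-treated cells 22.7, 15.3, 19.3 and 5.45. The lowest untreated value exceeds the highest aSyn-treated value. The mean ratio was 2.51-fold lower with aSyn (two-sided exact permutation test of 4 against 4 units, p = 0.0286, the smallest the design allows). Taking same-numbered units as pairs, the 4 differences all point down, with an exact sign-flip p = 0.125, again the smallest possible. With any 1 experiment left out the exact permutation p was 0.1, the smallest for 3 against 3. The mean log2 difference was then -0.71 without experiment 4 and -1.56 without experiment 2.

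Donors held 21.1 to 26.6 Trem2 counts per 100 Tyrobp counts in experiment 1, against 30.2 to 34.8 in acceptors. The ranges were 15.5 to 17.2 against 22.5 to 26.8 in experiment 2, 16.96 to 19.1 against 25.1 to 37.0 in experiment 3 and 4.75 to 7.05 against 34.9 to 45.8 in experiment 4. The mean log2 difference per experiment was -0.49, -0.58, -0.66 and -2.82, and the mean of the 4 was -1.14 (two-sided exact sign-flip test, p = 0.125, the smallest that 4 experiments allow). The ratio was thus lower with aSyn in all 4 experiments, and the ranges lay farthest apart in experiment 4.

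**Figure D3:**
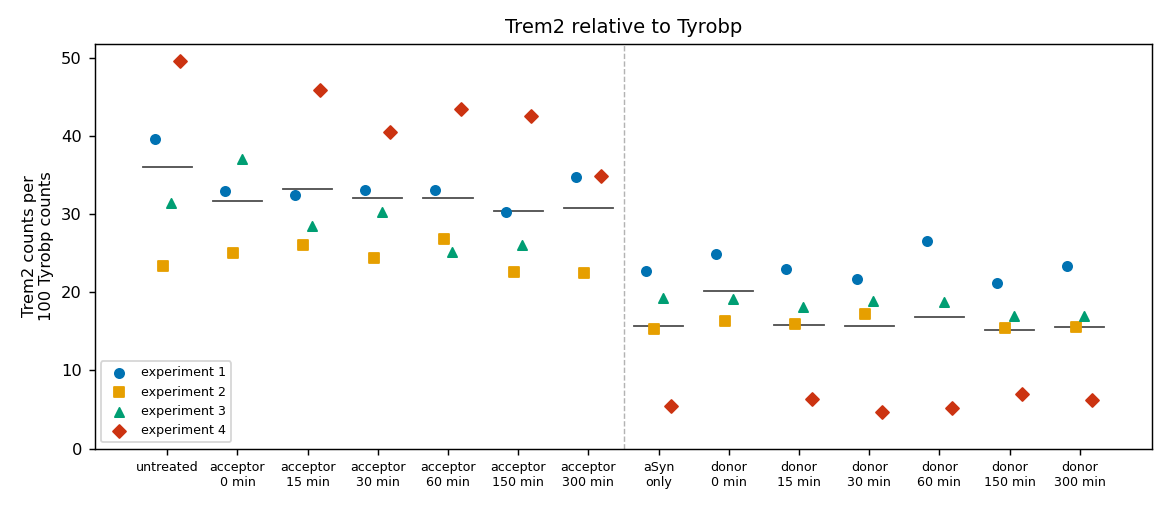
Trem2 counts per 100 Tyrobp counts in each unit of the 14 groups, coloured by experiment, with group means as bars and a dashed line between cells not given aSyn (left) and given it (right). In every experiment the points on the right lie below those on the left, and experiment 4 has the widest gap (4.75 to 7.05 in donors, 34.9 to 45.8 in acceptors).

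Treml4 was near the floor of the counting but was more often seen in cells given aSyn. It had 0 counts in all 6 untreated libraries and 1, 19, 9 and 2 counts in the aSyn-treated units of experiments 1 to 4, a mean of 0.578 ± 0.587 CPM (SD, n = 4). With a floor of 3 counts in each untreated unit, that is at least 2.88-fold higher. This bound was 1.43-fold without experiment 2 and 4.47-fold without experiment 1, and the aSyn-treated units of experiments 1 and 4 were themselves under the floor. These libraries chose the gene. Donors and acceptors are separate libraries in which it was also counted. Acceptors at 0 and 15 min held 0 to 2 counts, and donors at those times 4 to 20.

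Acceptors at 30 min held 8, 0, 0 and 2 counts of Treml4 in experiments 1 to 4 and donors 9, 3, 21 and 8. At 60 min acceptors held 9, 0, 9 and 5 counts, and donors 11, 26 and 17 in experiments 1, 3 and 4. The highest donor counts were in experiment 3, from 9 to 26 over the 6 times. At 150 min acceptors held 3, 3, 3 and 10 counts and donors 9, 9, 23 and 16, and at 300 min acceptors held 11, 0 and 6 (experiments 1, 2 and 4) and donors 9, 2, 25 and 9. The single pair in which the acceptor was higher is that of experiment 1 at 300 min, with 11 counts against 9, and donors were higher in 20 of 21 pairs by CPM. Over all units, 300 counts fell in the 26 aSyn-given and 73 in the 26 other units, 13 of which were at 0.

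Treml4 passed the filter on low counts through cells given aSyn, 12 of whose 26 units reached the filter's level of 0.76 CPM against 1 of the 26 others. It was thus tested because it was high there. Donors were also given aSyn, like the libraries that chose the gene, so the p-values below are no independent support for a rise. Over the 6 times it rose in donors by 2.29 ± 0.46 on the log2 scale (edgeR, adjusted p = 0.000296), and with no filter, over all genes, by 2.30 ± 0.47 (adjusted p = 0.000383). The block gave 2.19 ± 0.43 (adjusted p = 7.85e-05) and the fit without experiment 4 gave 2.38 ± 0.58 (adjusted p = 0.00363). At single times it was called at 15 min with the block (3.89 ± 1.21, adjusted p = 0.0355) and at no time without it, and the block without experiment 4 called it at no time (3.79 ± 1.45 at 15 min, adjusted p = 0.123). At so few counts the size of a fitted change depends on the prior count.

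Trem1, the amplifier of inflammatory signals, had 2, 2, 0 and 0 counts in the untreated units of experiments 1 to 4 and 0, 11, 21 and 43 in the aSyn-treated units. Experiment 1 was alone in having more in the untreated unit. Summed, 75 counts stand against 4, a ratio of 25.8 per library size (95% exact binomial interval 9.66 to 97.0, for counting error only). All untreated units were under the floor of 3 counts, and 43 of the 75 counts came from experiment 4. The ratio was 8.85 (3.14 to 34.5) without experiment 4, 40.9 (10.9 to 345) without experiment 2 and 60.2 (16.1 to 506) without experiment 1. Trem1 rose in the fit (log2 fold change 4.43 ± 1.23, edgeR adjusted p = 0.0395) and with the block (4.12 ± 1.13, adjusted p = 0.00827). It was not called without experiment 2 (adjusted p = 0.103), 3 (adjusted p = 0.266) or 4 (3.02 ± 1.27, adjusted p = 0.241).

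Acceptors, which were never given aSyn directly, also held Trem1 counts. They had 4, 4 and 0 counts at 0 min, 7, 5, 5 and 4 at 15 min, 8, 4, 3 and 3 at 30 min, 7, 8, 14 and 12 at 60 min, 17, 8, 17 and 50 at 150 min and 10, 2 and 26 at 300 min. From 15 to 300 min every acceptor unit exceeded the untreated unit of its experiment in Trem1 CPM, in 4 of 4 pairs at 15, 30, 60 and 150 min and 3 of 3 at 300 min, and at 0 min 2 of 3 did. The difference at 150 min was 4.67 ± 1.24 on the log2 scale (edgeR adjusted p = 0.1), was called with the block (4.49 ± 1.12, adjusted p = 0.014) and was 3.46 ± 1.27 without experiment 4 (adjusted p = 0.334).

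None of Trem2, Treml2 and Tyrobp was called in acceptors against untreated cells, in which 0%, 0%, 0.114%, 0.0683%, 0.137% and 0% of all genes were called at 0 to 300 min, or 0.995%, 2.25%, 3.6%, 4%, 4.78% and 0.623% with the block. Trem1 alone reached an unadjusted p under 0.05, at 15, 60, 150 and 300 min, and DESeq2 called none of the 4. In donors against acceptors Trem1 was not called over the times (0.81 ± 0.44, edgeR adjusted p = 0.179), being higher in the donor in 14 of 21 pairs. Donors held 5, 14 and 12 counts at 0 min, 4, 26, 53 and 14 at 15 min and 4, 4, 21 and 29 at 30 min. They held 14, 13 and 21 counts at 60 min (experiments 1, 3 and 4), 7, 10, 7 and 27 at 150 min and 0, 0, 7 and 39 at 300 min. In experiment 4 Trem1 was counted 14 to 39 times in donors at every time, whereas in experiments 1 and 2 donors at 300 min had none. Its most counted units were donors at 15 min in experiment 3, with 53 counts, and acceptors at 150 min in experiment 4.

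Treml2 differed more by experiment than by aSyn. Experiment 2 held 87 counts in untreated cells (53 and 34 in its 2 libraries), 12 in aSyn-treated cells, 8 to 21 in acceptors and 3 to 36 in donors, whereas experiments 1, 3 and 4 held 0 to 10 counts in cells not given aSyn. In experiment 1 donors had 0 to 5 and acceptors 2 to 5 counts, and in experiment 3 donors had 3 to 20 and acceptors 0 to 9. In experiment 4 donors had 16, 16, 7, 33 and 36 counts against 5, 4, 2, 3 and 10 in acceptors, higher in 5 of 5 pairs, while donors were higher in 8 of 16 pairs of the other experiments. No comparison called Treml2 (over the times 0.36 ± 0.51 on the log2 scale, edgeR adjusted p = 0.65; without experiment 4 -0.37 ± 0.59, adjusted p = 0.717).

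Trem3 failed the filter and was not tested. It had 0 counts in 14 of 26 aSyn-given and 19 of 26 other units, and above 3 counts in 6 and 3 units. Experiment 1 had 0 counts in all 14 units, and the highest values were in experiment 4, with 18 counts in donors at 60 min and 9 in donors at 15 min and acceptors at 300 min. At this depth 3 counts correspond to 0.113 to 0.387 CPM.

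**Figure D4:**
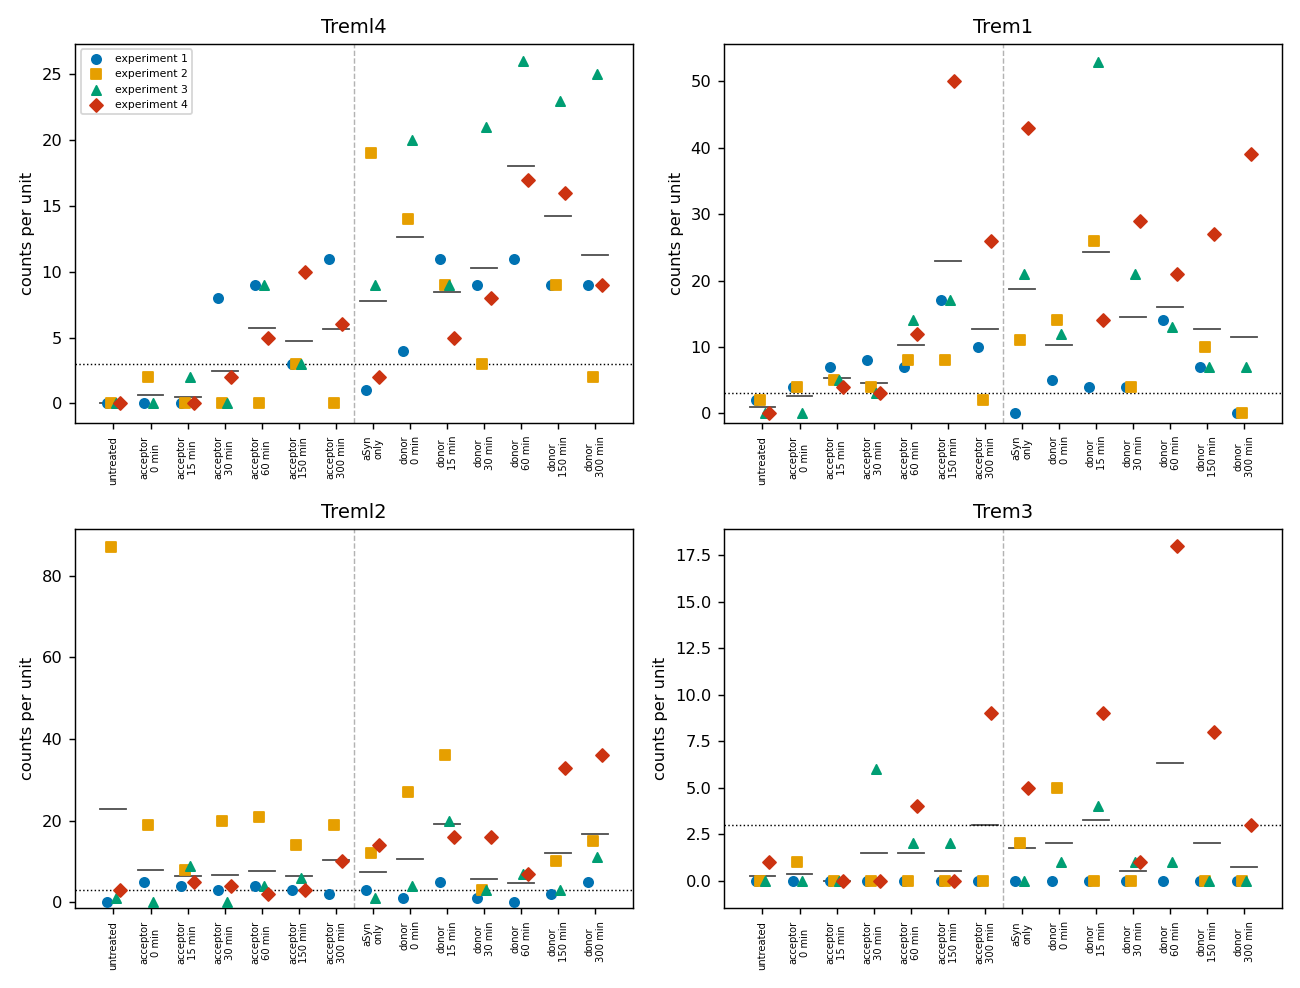
Counts of Treml4, Trem1, Treml2 and Trem3 in each unit of the 14 groups, coloured by experiment, with group means as bars, the floor of 3 counts dotted and a dashed line between cells not given aSyn (left) and given it (right). Treml4 is at 0 in untreated cells and highest in donors of experiment 3, Treml2 is highest in untreated cells of experiment 2, and most Trem3 points lie at 0.

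No gene of the family was called as changing over the co-culture times. Of 5 tested genes none was called in donors, in acceptors or in their difference (edgeR F tests), where 0.0607%, 0.00759% and 0% of all genes were called. Treml4 in acceptors alone had an unadjusted p under 0.05. Donors at 0, 15, 30, 60, 150 and 300 min gave no call against aSyn-treated cells either, where 0%, 0%, 0%, 0%, 0% and 0.0304% of all genes were called; none of the 4 genes tested there had an unadjusted p under 0.05 and DESeq2 called none.

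Whether the difference between aSyn-given and other units was alike in the 4 experiments was tested with an interaction added after the values of experiment 4 had been seen. It was called for 40.9% of all genes, among them Trem2 (edgeR adjusted p = 1.31e-31), Tyrobp (adjusted p = 1.00e-16) and Treml2 (adjusted p = 0.00591), and missed the threshold for Trem1 (adjusted p = 0.0556) and Treml4 (adjusted p = 0.115). The mean Trem2 level of aSyn-given units was 74.2%, 62.7%, 56.9% and 6.24% of the others in experiments 1 to 4, and that of Tyrobp 108%, 95.6%, 92.2% and 45.8%. Levels also differed between experiments, as they did for 81.7% of all genes, for Trem1, Trem2, Treml2 and Tyrobp (adjusted p = 0.0235, 0.0012, 2.19e-05 and 1.15e-10) but without a call for Treml4 (adjusted p = 0.247). The separate sequencing numbers and the other features of experiment 4 cannot be told apart, and the source of its values was not tested.

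The genes around the receptors were read from lists of ligands, proteases, partner receptors, signalling proteins and inhibitors. Set against the 25.6% of all genes called in donors against acceptors over the times, 10 of 17 tested genes of the adaptors and receptors that use TYROBP or the related adaptor FCER1G rose and none fell, with a median log2 fold change of 0.39 against -0.02 for all genes. Clec4n (Dectin-2) rose by 2.05 ± 0.18 and Clec4e (Mincle) by 2.36 ± 0.45, both C-type lectin receptors for microbial glycans and glycolipids, Sirpb1c, an activating SIRP receptor, by 1.25 ± 0.29 and Itgb2, an integrin chain, by 0.39 ± 0.07 (edgeR adjusted p from 5.6e-11 to 0.00112). Without experiment 4, where 20.9% of all genes were called, the list had 11 rises and no fall, with a median of 0.41. The block called 11 of the 17 higher and 2 lower, and 44.3% of all genes.

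Of 29 tested signalling genes downstream of Tyrobp 10 rose and 2 fell (median 0.08). The kinase gene Syk rose by 1.31 ± 0.12, the Src-family kinase gene Lyn by 0.78 ± 0.08, and Lcp2, a scaffold of the ITAM pathway, by 0.77 ± 0.11 on the log2 scale (edgeR adjusted p up to 1.4e-06). Of 16 inhibitors of ITAM signalling 6 rose and none fell (median 0.14). They include Inpp5d, the lipid phosphatase SHIP1 (0.39 ± 0.05), Cblb, a ubiquitin ligase (0.52 ± 0.09), and the inhibitory receptors Pirb (0.57 ± 0.18) and Cd300lf (1.71 ± 0.47), whose rise was not called without experiment 4 (0.33 ± 0.20 and 0.45 ± 0.42, adjusted p = 0.26 and 0.5). Without experiment 4 these lists had 9 rises and 2 falls, and 4 rises and 1 fall, with 20.9% of all genes called. Over all experiments 41.4% and 37.5% of the tested genes of these lists were called, against 25.6% of all genes.

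The shares called of the next lists, 28.6% of the ligand and 30% of the shedding genes, were near the 25.6% of all genes. Of 7 tested ligand genes none rose and 2 fell, Hmgb1 by 0.44 ± 0.07 and Tardbp by 0.18 ± 0.06. Of 10 genes of shedding and intramembrane cleavage 1 rose and 2 fell (median -0.10). Psen2, a gamma-secretase subunit (-0.23 ± 0.08), and Adam10, a sheddase (-0.16 ± 0.06), fell (edgeR adjusted p = 0.032 and 0.043), neither of which was called without experiment 4 (adjusted p = 0.075 and 0.37). Of 13 genes linked in the literature to the TREM2-dependent microglial response 4 rose and 1 fell (38.5% called, median 0.02). Ms4a6d (1.39 ± 0.20), Ms4a4a (1.67 ± 0.44) and Cst7 (1.09 ± 0.34) rose, and Lpl, lipoprotein lipase, fell by 0.70 ± 0.19. Ms4a4a and Cst7 were not called without experiment 4 (adjusted p = 0.15 and 0.13).

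Of 7 tested genes of receptor-driven osteoclast-like fusion 4 rose (median 0.38): Ocstamp, a fusion protein (4.61 ± 0.47, a fitted value from few counts in acceptors), Acp5 (2.88 ± 0.22), the protease gene Ctsk (0.75 ± 0.16) and Tnfrsf11a, the RANK receptor (0.38 ± 0.10, not called without experiment 4, adjusted p = 0.17). In aSyn-treated against untreated cells, with 2.5% of genes called, the lists in this order of description had 3, 1, 0, 0, 1, 1 and 2 genes higher and 0, 1, 0, 1, 0, 0 and 0 lower. The higher genes include Clec4n (2.59 ± 0.44), Clec4e (4.33 ± 1.13), Clec5a (1.04 ± 0.28) and Syk (1.59 ± 0.29), and the lower ones Hmgb1 (-0.68 ± 0.17) and Fyn (-0.93 ± 0.27). Without experiment 4, Clec4e, Hmgb1 and Fyn were not called. Some genes stand in more than 1 list.

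The genes most like each receptor were found by Pearson's r of log2 CPM over the 52 units after subtracting each experiment's mean, as a description, since the units share experiments and the aSyn grouping. For Trem2 these were Igf1, a growth factor (r = 0.99), Trf, the iron carrier transferrin (0.98), and Hexa, a lysosomal enzyme subunit (0.98), and in the 40 units of experiments 1 to 3 their r was 0.91, 0.84 and 0.82. For Tyrobp they were the ribosomal protein genes Rpl10a (0.96) and Rps16 (0.95), with Serpinb6a (0.95), and r fell to between 0.67 and 0.72 without experiment 4. For Treml4 they were Rnf149 (0.76), Tmem167 (0.75) and Slc7a11, the cystine transporter (0.74), for Trem1 Cd14, the lipopolysaccharide co-receptor (0.77), Sh2b2 (0.76) and Pak1ip1 (0.73), and for Treml2 Mrpl30 (0.68), Dusp28 (0.67) and Tspo (0.65). Trem2 and Tyrobp had r = 0.92 over all units and 0.28 in experiments 1 to 3, and Trem2 and Treml4 -0.43 and -0.79. Treml1, which lies beyond Trem2, fell in donors by 1.12 ± 0.28 on the log2 scale (edgeR adjusted p = 0.00246). Without experiment 4 its change was -0.71 ± 0.26 (edgeR adjusted p = 0.0504).

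Summed markers of several other cell types differed with aSyn, most widely in experiment 4, but the genes within a sum did not all move alike. Of 10 neutrophil markers 3 are in the table, and their summed level had a median of 4.25 CPM in aSyn-given and 1.48 in other units of experiments 1 to 3 (ranges 1.28 to 7.36 and 0.136 to 2.37), and of 64.8 and 4.73 in experiment 4 (55.6 to 80.7 and 2.34 to 8.54), most of it Mmp8, a collagenase also made by macrophages, at a median of 57.0 CPM. S100a8, a defining gene of neutrophils, had a median of 6.9 CPM in aSyn-given units of experiment 4 and Camp 0.73. The summed level of 8 astrocyte markers had medians of 14.7 and 14.4 in experiments 1 to 3 and of 19.5 and 33.1 in experiment 4 (ranges 8.79 to 35.3, 7.59 to 77.6, 9.83 to 29.3 and 23.1 to 139). Platelet markers (6 of 6 in the table, Gp9 at 0 in experiment 4) were mostly Pf4. Their summed medians were 99.3 and 66.4 CPM in aSyn-given and other units of experiments 1 to 3 (52.7 to 139 and 33.3 to 96.2). In experiment 4 they were 142 and 56.5 (125 to 157 and 50.3 to 102), with Pf4 at 141 and 48.2. By median, Treml1 (0.47 and 5.96), Gp1bb (0.21 and 0.96) and Itga2b (0.32 and 0.39) were lower with aSyn there. Monocyte and dendritic markers (7 of 10) had medians of 7.66 and 5.14 in experiments 1 to 3 (4.72 to 12.004 and 1.60 to 12.9). In experiment 4 they had 14.9 and 4.11 (12.5 to 20.8 and 2.67 to 6.48, Itgae at 0). Most of the aSyn-given level there was Xcr1, at a median of 10.7 against 1.86 CPM. Ccr7 was also higher (1.54 against 0), while Ccr2 (0.98 against 1.17) and Zbtb46 (0.04 against 0.94) were lower. Endothelial and fibroblast markers (6 of 7) had medians of 16.4 and 10.6 in experiments 1 to 3 (11.9 to 23.8 and 4.32 to 28.8). In experiment 4 they had 35.2 and 17.2 (25.0 to 43.5 and 10.8 to 29.8), with Kdr at 25.3 and 7.83. Dcn (7.84 against 3.27) and Pecam1 (2.85 against 0.45) were also higher with aSyn there, while Col1a1 (0.86 against 3.53) was lower. Among microglial markers in experiment 4, Cx3cr1 had medians of 23.1 and 133 and Fcrls of 19.4 and 190.1 CPM in aSyn-given and other units, while Adgre1 had 1486 and 871 and Itgam 622 and 338. The part of these markers in the values of Trem2, Tyrobp and Trem1 was not tested.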

How the data were processed

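Microglial RNA was read in 54 libraries of 3′-end sequencing. The authors deposited raw counts per gene symbol, per the file headers, and a normalized signal that, per the file headers, is DESeq2 normalized data; 100% of its values equalled count divided by size factor within 0.051, and it was used for that check only. The submitters' processing notes name STAR, Partek, DESeq2 and mm10, with no role or version; the counter, annotation and use of strand are not given in the sources used here.

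Groups were taken from the titles. The untreated libraries sharing a number were summed. edgeR (version 4.0.16, R 4.3.3) was fitted to all genes over 52 units: TMM library sizes, filterByExpr per group (minimum count 10), group means, quasi-likelihood F test and Benjamini-Hochberg adjustment over 13169 genes, called under 0.05. Each ± beside an edgeR log2 fold change is an approximate SE, the absolute log2 fold change divided by the square root of F. Likeness used a prior count of 2. The script was tested on simulated data. Groups share replicate numbers, per the titles; same-numbered units deviated together in every comparison (lowest r = 0.199, means from 0.339 to 0.593), so the replicate block is given beside results whose call it changes. DESeq2 (1.42.0) was an alternative, for which the share of all genes called was not computed.

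Named were all 6 genes, the 3 most alike genes of each, and from each list up to 4 called genes with the smallest adjusted p; a few of these, and 1 marker, are not reported here. The genes, the lists and the tests were chosen with earlier results of these data known. An NF-kB motif was also searched in the promoter windows and had no match in the 3 shown.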

Additional observations from a re-analysis of the deposited data

Results flagged for a closer look

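Difference with aSyn that varied across experiments. The added interaction test was called for Trem2 (edgeR adjusted p = 1.31e-31), Tyrobp (1.00e-16) and Treml2 (0.00591). The mean Treml2 level was 0.195 CPM in aSyn-given and 0.272 CPM in other units of experiment 1, and 1.61 and 0.338 CPM in experiment 4.

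Single units that stood apart. In 68 groups of 4 units, 15 had a highest or lowest unit separated from the others beyond Dixon's 95% limit. Chance flags about 1 in 20 groups of continuous values, a rate that does not hold for counts near 0: in 6 of the 15 groups, 5 of Trem3 and that of Treml4 in acceptors at 15 min, all other units were at 0, which sets the unit apart whatever its count. Tyrobp was lowest in experiment 4 in aSyn-treated cells (676 CPM), donors at 300 min (655 CPM) and acceptors at 150 min (1420.0 CPM). Trem1 was highest in experiment 4 in donors at 150 min (1.97 CPM) and in experiment 1 in acceptors at 30 min (0.54 CPM). Treml2 was highest in experiment 2 in untreated cells (3.79 CPM) and acceptors at 60 min (1.70 CPM), and in experiment 4 in donors at 30 min (1.38 CPM). Treml4 was highest in experiment 4 in acceptors at 150 min (0.79 CPM) and in experiment 3 in acceptors at 15 min (0.14 CPM). Trem3 was highest in experiment 4 in donors at 150 min (0.584 CPM), donors at 300 min (0.235 CPM) and untreated cells (0.0377 CPM), and in experiment 3 in acceptors at 30 min (0.457 CPM) and 150 min (0.133 CPM). Several of these units hold 3 counts or fewer.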

How the results depend on the processing

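Of 1015 refitted values of single genes, none reversed a called direction. A reversal was counted only where the original or the refitted value was called, which few were. Among uncalled values the sign did change. In aSyn-treated against untreated cells, refits of Treml2 ran from -1.76 to 2.63 and those of Tyrobp from -0.24 to 0.02 (log2). The count of called family members, with Treml4 left out where untreated or aSyn-treated libraries enter, was 1 of 4 in aSyn-treated against untreated cells. There 2.5% of all genes were called. Leaving out an experiment gave 0 to 1, and the fit to the compared groups only gave 0. Without experiment 4 the share of all genes called was 2.3%. For the other refits named here that share was not computed, so their counts have no background beside them. In donors against acceptors over the times the count was 2 of 5, Trem2 and Treml4, with 25.6% of all genes called. Treml4 was chosen by its counts with aSyn and passed the filter through cells given aSyn. Its call is therefore no independent support and adds nothing to the count for the family. With an experiment left out the count was 1 to 2, where 20.9% of all genes were called without experiment 4 and the other shares were not computed. The replicate block raised the count from 0 to 1 in donors against acceptors at 15 min, through Treml4 alone, with 9.57% of all genes called. It did the same in acceptors at 150 min against untreated cells (4.78%), where keeping same-numbered untreated libraries apart also gave 1 (share not computed). The block without experiment 4 gave 1 at each of the 6 donor-acceptor times, with 1.17% to 11.1% of all genes called. The cause was not tested. The block changed no other count by over 1.5 times.

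The Trem2 to Tyrobp ratio difference of aSyn-treated and untreated cells, -1.32 on the log2 scale (p = 0.0286), was -1.32 in the paired exact test with the replicate block (p = 0.125) and -1.56 to -0.71 without an experiment (p = 0.1), where fewer units cannot reach the threshold. Treml4, Trem1, Treml2 and Trem3 rest on at most 26, 53, 87 and 18 counts in a unit, and differences among units at 3 counts or fewer were not detectable at this depth.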
